A study of Arabidopsis thaliana with 4 samples.

Results

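The phosphate starvation response was followed through 10 genes in seedlings of Arabidopsis thaliana, among 24252 genes listed in any library. They were taken by gene identifier: PHR1, SPX1, SPX3, IPS1, PHO1, PHT1-1, PHT1-4, PAP17, SQD2 and RNS1. All 10 were listed in each of the 4 libraries, and 9 reached the mean of 1 FPKM (fragments per kilobase of transcript, scaled to the size of the library) that was required for testing. SPX3 did not. RNA-seq was made from 2 libraries labelled WT and 2 labelled fer-4, the latter with the genotype FERONIA-/-. FERONIA is a receptor kinase of the plasma membrane that binds RALF peptides and takes part in cell wall sensing. All libraries came from 7-day-old Col-0 seedlings, kept without treatment in long days on vertical plates of reduced-strength Murashige and Skoog medium, so neither group was starved of phosphate by design. The labels do not say whether the replicates came from separate plates or seed lots, and the spread behind every p-value is that between these libraries and may be technical.

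Plants sense their phosphate status through inositol pyrophosphates, which bind SPX domain proteins. In replete cells SPX proteins hold the transcription factor PHR1 inactive, and in starved cells PHR1 is released and activates genes through a DNA element named P1BS. Its targets take up phosphate (PHT1 transporters) and recover it from organic compounds (acid phosphatases and ribonucleases). Others replace phospholipids by sulfolipids and galactolipids (SQD2, MGD2, MGD3). PHO1 loads phosphate into the xylem. The RNA IPS1 binds the microRNA miR399 without being cut and so shields the transcript of PHO2, an enzyme that marks phosphate transporters for destruction.

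The P1BS element, searched as GNATATNC, reads the same on both strands. Within the 1000 bases before the annotated gene start it was found in 5 of the 10 members, SPX1, SPX3, IPS1, PHT1-1 and SQD2, against 20.3% of the tested genes. Within the 300 bases before the start it was found only in SPX3 among the members, against 6.54% of the tested genes. The windows of 60 bases around each match are shown so that the copies of the element can be compared between members. Of these members PHT1-1 passed the genotype test, SPX1, IPS1 and SQD2 did not, and SPX3 was not tested. RNS1 and PHR1, which also passed, have no match. Capitals mark the match that the line names, the strand is that of the gene, and the sequences are RefSeq, build TAIR10.1. The PHT1-1 windows overlap, and each holds the match of the other in lower case. PHT1-2, the neighbouring copy of PHT1-1, is added for comparison.
SPX1, 735 bases before the start, chr5:6801521-6801580, plus strand: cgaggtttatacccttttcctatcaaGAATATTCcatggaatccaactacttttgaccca
SPX3, 213 bases, chr2:18606171-18606230, plus strand: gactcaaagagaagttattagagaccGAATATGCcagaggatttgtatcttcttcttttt
SPX3, 90 bases, chr2:18606294-18606353, plus strand: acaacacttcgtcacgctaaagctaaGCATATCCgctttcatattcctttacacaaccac
IPS1, 582 bases, chr3:3050381-3050440, plus strand: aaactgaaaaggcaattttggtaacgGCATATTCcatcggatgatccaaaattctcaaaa
IPS1, 548 bases, chr3:3050415-3050474, plus strand: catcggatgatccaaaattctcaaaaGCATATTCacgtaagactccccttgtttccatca
SQD2, 340 bases, chr5:90424-90483, minus strand: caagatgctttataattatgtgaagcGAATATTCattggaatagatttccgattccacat
PHT1-1, 786 bases, chr5:17402911-17402970, minus strand: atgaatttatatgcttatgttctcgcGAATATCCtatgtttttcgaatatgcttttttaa
PHT1-1, 768 bases, chr5:17402893-17402952, minus strand: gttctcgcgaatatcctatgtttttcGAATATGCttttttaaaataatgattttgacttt
PHT1-2, 569 bases, chr5:17415103-17415162, plus strand: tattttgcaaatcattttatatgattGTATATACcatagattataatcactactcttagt
PHT1-2, 42 bases, chr5:17415630-17415689, plus strand: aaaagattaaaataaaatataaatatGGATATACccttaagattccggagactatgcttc
A match is a string of letters and does not show that the element is bound.

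The match between IPS1 and miR399 can be read in the sequence. Of the 7 annotated mature miR399 arms, 6 share the seed at bases 2 to 8, in capitals in miR399a. In the transcripts, capitals mark the complement of that seed. The exonic match in IPS1 and 1 of the 2 in AT4, a close relative of IPS1, share most of their letters.
miR399a, chr1:10227165-10227185, plus strand: uGCCAAAGgagauuugcccug
IPS1, chr3:3051224-3051247, plus strand: ttgggcaacttctatcCTTTGGCa
AT4, chr5:895149-895172, plus strand: ttgggcaacttcgatcCTTTGGCa
The 7 host genes of miR399 and miR827 were listed in 0 of the 4 libraries, which were made with an mRNA-seq kit, so the microRNA side of the circuit was not analysed here.

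FER itself measured 89.0 and 91.9 FPKM in the WT libraries and 60.6 and 62.1 FPKM in the mutant ones. Its transcript was called lower in fer-4 (log2 fold change -0.55 ± 0.08, limma adjusted p = 0.00638), and past the threshold under 10 of 11 alternatives. The gene was thus lower in the mutant but read in both genotypes. The libraries listed 22537 to 22844 genes each, and the fit over 19183 genes called 2743 higher and 1726 lower in the mutant. Higher genes made up 61.4% of these calls and 49.2% after quantile normalization. All 12 root markers and 10 shoot markers were listed in all 4 libraries. The root markers summed to 166 and 142 FPKM in WT and to 150 and 143 FPKM in fer-4, with 1 of 12 higher and 1 lower, and the shoot markers to 16420 and 17660 FPKM in the WT libraries and 15390 and 12120 FPKM in the mutant ones, with 0 of 8 tested higher and 2 lower. The shoot sum was mostly that of RBCS1A, RBCS2B and LHCB1.3, which averaged 9236, 4863 and 2531 FPKM in WT and were not called. The shoot markers called lower were STM and AS1, and LHCB1.1 lay above WT in both fer-4 libraries without being called. Of 4 seed storage genes, CRA1 and CRC were at 0 in all libraries and the others summed to at most 0.27 FPKM. In whole seedlings, fewer cells of a type and less RNA per cell cannot be told apart, and the part of tissue balance in the results below was not tested.

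Of the 9 members tested, 3 rose in fer-4 (RNS1, PHT1-1 and PHR1) and 0 fell by limma at an adjusted p of 0.05. Over all tested genes 23.3% were called, 14.3% higher and 9.00% lower, so with so few members the share called was not far from the background. At an unadjusted p under 0.05, SPX1 and SQD2 were lower as well, as a mark that 7210 of the 19183 genes reached in either direction. The median log2 fold change was 0.23 over the 9 members and 0.01 over all tested genes. Both fer-4 libraries lay above both WT libraries in 4 members, against 34.4% of all tested genes, and below them in 2, against 31.7%.

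**Figure D1:**
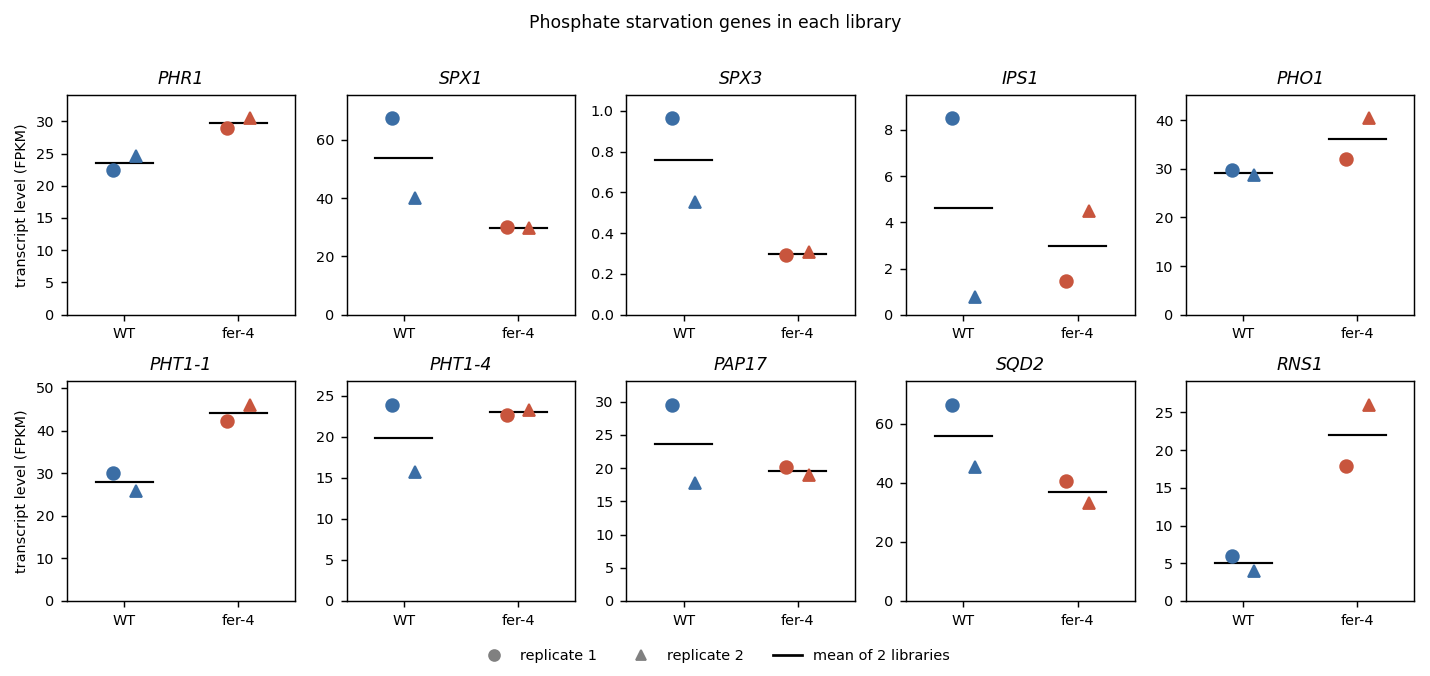
FPKM of the 10 members in the 2 WT libraries (blue) and the 2 fer-4 libraries (red), with circles for replicate 1, triangles for replicate 2 and bars at group means; each vertical axis starts at 0. RNS1, PHT1-1 and PHR1 are higher in both fer-4 libraries, while WT replicate 1 lies above WT replicate 2 in every member except PHR1, with the largest ratio in IPS1.

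Among the regulators, PHR1 (AT4G28610, chr4:14132811-14135292), the master transcription factor, measured 22.5 and 24.5 FPKM in the WT libraries and 28.9 and 30.5 FPKM in the mutant ones. The groups did not overlap and the replicates lay close together. The change was small, with a log2 fold change of 0.32 ± 0.09 (SE; limma adjusted p = 0.0493, n = 2 per group), and it was past the threshold under only 2 of 11 alternatives (adjusted p from 0.0393 to 0.216). PHR1 overlaps AT4G28600 on the other strand, and without a known strand setting the reads of such a pair cannot be told apart.

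SPX1 (AT5G20150, chr5:6802282-6803655), which holds PHR1 inactive and is itself a PHR1 target, measured 67.4 and 40.1 FPKM in the WT libraries and 29.9 and 29.7 FPKM in the mutant ones. Both fer-4 libraries were low and nearly equal, whereas the WT libraries differed 1.68-fold from each other. The log2 fold change was -0.78 ± 0.23 and did not pass (limma adjusted p = 0.0549). Its size depended on WT replicate 1, since it was -1.15 without WT replicate 2 (adjusted p = 0.0107) and -0.42 without WT replicate 1 (adjusted p = 0.0883).

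SPX3 (AT2G45130, chr2:18606410-18607853), a more starvation-specific relative, measured 0.963 and 0.550 FPKM in the WT libraries and 0.291 and 0.307 FPKM in the mutant ones. These levels lie under the filter, and the gene was not tested in the fit reported here; the order of the libraries was that of SPX1 except among the fer-4 pair. With no filter its log2 fold change was -0.43 (limma adjusted p = 0.107).

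IPS1 (AT3G09922, chr3:3050989-3051530), the miR399 decoy, measured 8.50 and 0.782 FPKM in the WT libraries and 1.46 and 4.47 FPKM in the mutant ones. The WT libraries formed the highest and the lowest value and enclosed both fer-4 libraries. WT replicate 1 was 10.9-fold above WT replicate 2, and no genotype difference could be told from that spread (log2 fold change -0.16 ± 0.78, limma adjusted p = 0.904). The direction turned with the library left out, from 1.04 without WT replicate 1 to -1.37 without WT replicate 2. AT4, the related decoy RNA, measured 62.3 and 22.2 FPKM in the WT libraries and 44.8 and 59.0 FPKM in the mutant ones, again with WT at both ends.

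The partners of these regulators in the circuit differed little between genotypes. PHO2 averaged 35.6 ± 2.51 FPKM in WT and 35.3 ± 2.13 FPKM in fer-4 (SD, n = 2), and PHL1, the closest relative of PHR1, 12.2 ± 0.0474 and 14.0 ± 2.14 FPKM. SPX2 averaged 15.3 ± 2.84 and 14.4 ± 0.748 FPKM and SPX4, another SPX repressor of PHR1, 8.03 ± 0.298 and 8.86 ± 0.0554 FPKM. None of these 4 passed (limma adjusted p from 0.343 to 0.937).

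Of the transporters, PHT1-1 (AT5G43350, chr5:17399769-17402158), a major carrier for phosphate uptake by the root, measured 30.0 and 25.7 FPKM in the WT libraries and 42.3 and 46.1 FPKM in the mutant ones. The groups did not overlap, and fer-4 was 1.59-fold higher. The log2 fold change was 0.65 ± 0.11 (limma adjusted p = 0.00892), and past the threshold under 10 of 11 alternatives, the exception being the fit without WT replicate 2 (adjusted p = 0.0675).

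PHT1-2 (AT5G43370), which lies close to PHT1-1 on chromosome 5 in the opposite orientation, went the other way. It measured 23.2 and 18.5 FPKM in the WT libraries and 2.77 and 3.43 FPKM in the mutant ones. Both fer-4 libraries were far below both WT libraries, at a ratio of 6.73 between the WT and mutant means, with a log2 fold change of -2.41 ± 0.15 (limma adjusted p = 0.00037). It passed under all 11 alternatives, with adjusted p-values from 0.000143 to 0.00756. PHT1-3, which lies between them, and PHT1-6, on their other side, were not listed in any library.

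The copies are alike enough that the authors' counting could divide reads between them. Their coding sequences, each of 1575 bases, are identical at 1539 positions (97.7%), and 30.4% of all 100-base windows of the PHT1-1 transcript also occur letter for letter in that of PHT1-2. Their 300 bases before the gene start align with 57.9% identity over the aligned positions. This is near the 54.1% and 56.4% of PHT1-1 with PHT1-3 and PHT1-4, so the close likeness is that of the transcripts. Summed, the pair measured 53.2 and 44.3 FPKM in the WT libraries and 45.1 and 49.5 FPKM in the mutant ones, with overlapping groups and means of 48.7 ± 6.27 and 47.3 ± 3.11 FPKM (SD, n = 2). The sum was thus alike in both genotypes, while the share assigned to PHT1-1 went from 57.3 ± 1.27% to 93.5 ± 0.546%. The sources used here do not say how reads that match both copies were assigned, so the opposite changes of the copies are uncertain, and their part in the rise of PHT1-1 was not tested.

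**Figure D2:**
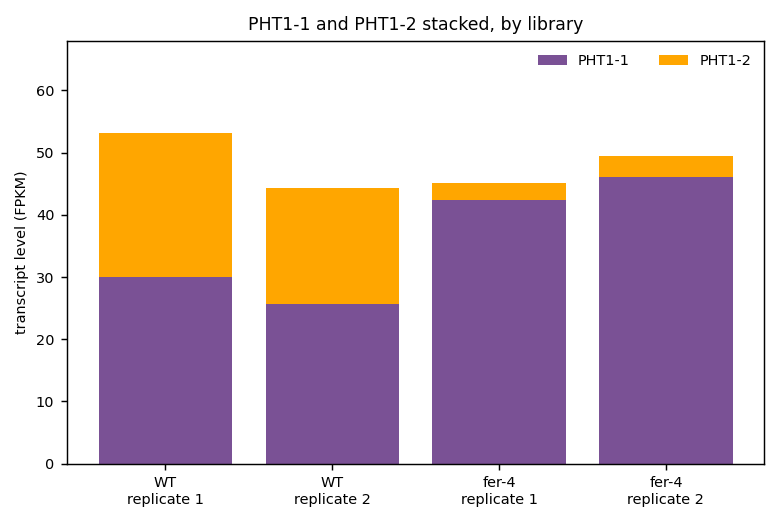
FPKM of PHT1-1 (purple) and PHT1-2 (orange) stacked for each library, on an axis from 0. The stacks are of similar height, 44.3 to 53.2 FPKM, while the PHT1-2 part falls from 18.5 and 23.2 FPKM in WT to 2.77 and 3.43 FPKM in fer-4.

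PHT1-4 (AT2G38940, chr2:16257157-16260253), the other main root uptake carrier, measured 23.9 and 15.7 FPKM in the WT libraries and 22.6 and 23.3 FPKM in the mutant ones. The fer-4 values lay within the WT range, and the difference did not pass (log2 fold change 0.23 ± 0.19, limma adjusted p = 0.412). Its coding sequence is 70.5% identical to that of PHT1-1, with 0 shared 100-base windows. PHO1 (AT3G23430, chr3:8387398-8393467), the exporter that loads phosphate into root xylem, measured 29.7 and 28.7 FPKM in the WT libraries and 32.1 and 40.4 FPKM in the mutant ones. The groups did not overlap, but fer-4 replicate 2 carried most of the difference, which did not pass (0.29 ± 0.12, limma adjusted p = 0.144, and 0.0295 without fer-4 replicate 1). Its relative PHO1-H1 averaged 6.63 ± 0.699 FPKM in WT and 5.09 ± 0.195 FPKM in fer-4, a difference that did not pass (limma adjusted p = 0.107).

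Of the scavenging enzymes, RNS1 (AT2G02990, chr2:873506-874886), a secreted ribonuclease that is also known to be induced by wounding, measured 5.99 and 4.02 FPKM in the WT libraries and 17.9 and 26.03 FPKM in the mutant ones. Every fer-4 library exceeded every WT library, by a ratio of means of 4.39. This was the largest change among the members, with a log2 fold change of 1.93 ± 0.22 (limma adjusted p = 0.00269), and it passed under all 11 alternatives (adjusted p from 0.000268 to 0.0282). Its relatives differed from it. RNS2 averaged 79.5 ± 9.77 FPKM in WT and 83.9 ± 5.28 FPKM in fer-4 and RNS3 13.4 ± 0.648 and 11.1 ± 0.623 FPKM (SD, n = 2), and neither passed (limma adjusted p = 0.646 and 0.12).

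PAP17 (AT3G17790, chr3:6089381-6091231), a purple acid phosphatase used as a starvation marker, measured 29.6 and 17.7 FPKM in the WT libraries and 20.2 and 19.0 FPKM in the mutant ones. WT replicate 1 alone was high, and the other libraries were alike. The difference did not pass (-0.22 ± 0.22, limma adjusted p = 0.523) and its sign turned to 0.14 without WT replicate 1. The files give PAP17 a locus shared with AT3G17800, on the opposite strand, which measured 31.1 and 32.7 FPKM in the WT libraries and 34.0 and 42.9 FPKM in the mutant ones, so the value of either is uncertain. The purple acid phosphatases PAP10, PAP12 and PAP26 differed by -0.22, -0.17 and 0.04 on the log2 scale, and none passed (limma adjusted p = 0.381, 0.239 and 0.797).

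SQD2 (AT5G01220, chr5:86543-90117), which completes the synthesis of the sulfolipid that replaces phospholipid in plastids, measured 66.4 and 45.3 FPKM in the WT libraries and 40.5 and 33.1 FPKM in the mutant ones. Both WT libraries lay above both fer-4 libraries, with WT replicate 1 apart. The log2 fold change was -0.57 ± 0.19 and did not pass (limma adjusted p = 0.0831); it was -0.84 without WT replicate 2 (adjusted p = 0.0492), -0.71 without fer-4 replicate 1 (adjusted p = 0.0489) and -0.30 without WT replicate 1 (adjusted p = 0.291). SQD1, the enzyme of the preceding step, had the same order of genotypes, with 118 and 68.4 FPKM in the WT libraries and 61.0 and 61.4 FPKM in the mutant ones. It did not pass either (-0.55 ± 0.24, limma adjusted p = 0.154).

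In part of the genes of this response the WT libraries differed from each other more than in most genes. The median log2 difference, replicate 1 minus replicate 2, was 0.54 over the tested members and 0.15 over the wider phosphate list described below. It was 0.19 over the root markers and 0.03 over all tested genes. Within the wider list it ranged from -0.01 over the regulators to 0.24 over the scavenging genes. On the scale of FPKM + 1, 3 of the 9 tested members (IPS1, SPX1 and PAP17) and 9 of the 58 tested genes of the wider list were at least 1.5-fold higher in WT replicate 1 than in WT replicate 2, against 1.56% of all tested genes. In the other direction 0 members and 0 genes of the wider list passed that fold. Among all 19183 tested genes few did so either, 196 of those that have upstream sequence. Counts of 0 in lists this short are thus not far from the background. The 9 genes of the wider list that were higher in WT replicate 1 by that fold were PECP1, AT4, MGD3, MGD2, GDPD1, PS2, SQD1, G3PP2 and GDPD5. They include galactolipid synthases (MGD2, MGD3), lipid and phospho-head-group hydrolases (GDPD1, GDPD5, PECP1) and a pyrophosphate-specific phosphatase (PS2); PECP1, GDPD1, PS2 and G3PP2 are named after their values were seen.

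Ranked by this difference among 19183 genes, IPS1 was 4th, PECP1 10th, AT4 17th, MGD3 18th and MGD2 30th. MGD2 measured 16.4 and 6.02 FPKM in the WT libraries and 5.59 and 4.83 FPKM in the mutant ones, and MGD3 3.50 and 0.666 FPKM in the WT libraries and 0.724 and 0.901 FPKM in the mutant ones. For both, WT replicate 2 lay near the fer-4 libraries and WT replicate 1 stood alone. PECP1, with 3.97 and 0.436 FPKM in the WT libraries and 2.20 and 2.54 FPKM in the mutant ones, shared with IPS1 and AT4 the lowest value in WT replicate 2.

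WT replicate 1 was the highest of the 4 libraries in 5 of the 9 tested members and in 22 of the 58 wider genes, against 28.0% of all tested genes. The same held for 6 of the 12 root markers and 1 of the 8 tested shoot markers. The 16 tested regulators of the wider list were split evenly, with 8 higher in WT replicate 1 than in WT replicate 2. Over all tested genes 57.7% were higher in WT replicate 1, so the regulators lay near that share. The count was 8 of the 9 tested members, 39 of the 58 wider genes, 9 of the 12 root markers and 3 of the 8 tested shoot markers. Between the fer-4 libraries the median difference was small, -0.07 over the members and -0.01 over all tested genes on the log2 scale. The root markers had a median difference between the WT libraries of 0.19 and the shoot markers one of -0.05, with 0 of either past 1.5-fold. The P1BS element, in the 1000 bases before the start, was present in 8 of the 12 phosphate genes that were at least 1.5-fold higher in WT replicate 1 and in 21 of the other 55 tested. Together the 67 tested phosphate genes, listed for their part in the starvation response, carried it in 43.3%. These counts describe the list and are no test of PHR1 activity. The element was also present in 26.1% of the 280 other genes at least 1.5-fold higher in WT replicate 1 that have upstream sequence. The share was 20.3% of all tested genes and 14.8% of the 196 genes at least 1.5-fold higher in WT replicate 2 that have upstream sequence. In the 300 bases before the start the element was present in 5 of the same 12 and 11 of the other 55 phosphate genes, in 10.4% of the 280, in 6.54% of all tested genes and in 7.14% of the 196, so the lower share in the last group was not seen in the shorter window. With 2 libraries a genotype this is a description of single libraries, and its cause was not tested.

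**Figure D3:**
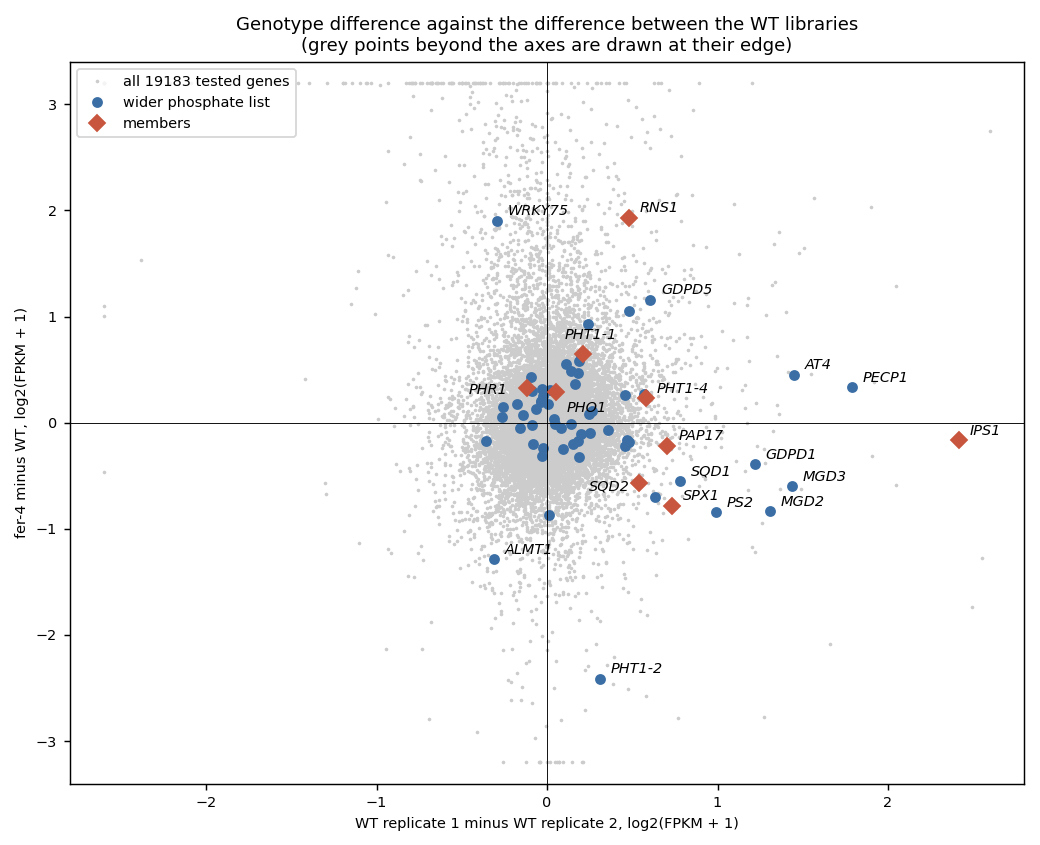
Difference between the WT libraries (horizontal axis) and between the genotypes (vertical axis) in log2(FPKM + 1), for all 19183 tested genes (grey), the tested genes of the wider phosphate list (blue) and the 9 tested members (red). IPS1, AT4, PECP1, MGD2 and MGD3 lie far to the right of the grey cloud, while RNS1 and PHT1-2 lie far from 0 on the vertical axis.

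The log2 fold change of part of the phosphate genes depended on the WT library kept. Without WT replicate 2, so with WT replicate 1 as the only WT library, it was -1.15 for SPX1 and -0.84 for SQD2. In the same fit it was -0.94 for SQD1, -1.49 for MGD2 and -1.315 for MGD3. Without WT replicate 1 these genes, in that order, were at -0.42, -0.30, -0.16, -0.18 and 0.12. Without fer-4 replicate 1, with both WT libraries kept, SQD2 was at -0.71. AT4 was at -0.27 without WT replicate 2 and at 1.17 without WT replicate 1. Over all alternatives GDPD1 ranged from -1.003 to 0.216, PS2 from -1.336 to -0.348 and PECP1 from -0.56 to 1.23. All of these but SQD2 are named above as at least 1.5-fold higher in WT replicate 1, so this dependence largely follows from that choice. ALMT1 and PHT1-2 were lower in both fits, at -1.13 and -2.565 without WT replicate 2 and -1.44 and -2.256 without WT replicate 1. In such a fit the single WT library is assumed to vary like the other group.

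The wider list held 83 genes of phosphate sensing, transport, recovery and lipid exchange that are no members; 72 were listed in at least 1 library and 58 were tested. Of these, 9 rose and 3 fell in fer-4 (20.7%, against 23.3% of all tested genes), with a median log2 fold change of 0.05. Both fer-4 libraries lay above both WT libraries in 20, against 34.4% of all tested genes, and below them in 14, against 31.7%. With all 4 libraries the share of calls was thus no larger than over all genes. Without WT replicate 2 it was 10 of 58, against 1688 of 19183 genes, and without WT replicate 1 it was 7 of 58, against 1905 of 19183.

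Among 16 tested regulators 2 rose and 0 fell (12.5%, against 23.3% of all tested genes). WRKY75, a transcription factor of starvation, senescence and defence, measured 3.49 and 4.51 FPKM in the WT libraries and 12.7 and 24.2 FPKM in the mutant ones. Both fer-4 libraries were well above WT and differed from each other, with a log2 fold change of 1.90 ± 0.28 (limma adjusted p = 0.00662, and 0.0618 without WT replicate 1). WRKY6, which represses PHO1, measured 14.4 and 13.0 FPKM in the WT libraries and 19.6 and 19.7 FPKM in the mutant ones (0.49 ± 0.09, limma adjusted p = 0.0155), and did not pass without either WT library (0.0564 and 0.109).

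Of 5 genes of the root growth response to low phosphate, 1 fell (20%, against 23.3% of all tested genes called). ALMT1, the channel that releases malate from root tips, measured 35.8 and 44.6 FPKM in the WT libraries and 15.8 and 15.8 FPKM in the mutant ones. The groups were far apart and the fer-4 libraries equal at this precision (-1.29 ± 0.12, limma adjusted p = 0.00132), and the change passed under all 11 alternatives. The other 4 genes, which include STOP1 (named after its values were seen), the transcription factor that activates ALMT1, did not pass.

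Of 12 tested transport genes 1 rose and 2 fell (25%, against 23.3% of all tested genes). PHT5-1, a vacuolar phosphate importer, measured 26.01 and 22.7 FPKM in the WT libraries and 31.7 and 42.7 FPKM in the mutant ones (0.58 ± 0.15, limma adjusted p = 0.0436), with a call that ended under 6 of 11 alternatives. PHO1-H10, a relative of PHO1, measured 2.45 and 2.42 FPKM in the WT libraries and 0.781 and 0.975 FPKM in the mutant ones (-0.87 ± 0.16, limma adjusted p = 0.0126, and 0.0711 and 0.0758 without either WT library). It overlaps AT1G69470 on the other strand. The second fall was that of PHT1-2, described above.

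Of 11 tested scavenging genes 3 rose and 0 fell (27.3%, against 23.3% of all tested genes). All 3 were purple acid phosphatases, while PAP10, PAP12 and PAP26, of the same family, did not pass. PAP7 measured 5.23 and 3.47 FPKM in the WT libraries and 9.65 and 10.3 FPKM in the mutant ones, a 2.29-fold rise (1.06 ± 0.17, limma adjusted p = 0.00935) that passed under all 11 alternatives. PAP1 rose 2.21-fold, from 3.22 ± 0.501 to 7.12 ± 1.85 FPKM, and PAP15, a phytase, 1.54-fold, from 6.44 ± 0.412 to 9.90 ± 0.287 FPKM (SD, n = 2). These last calls ended without either WT library, and each of these genes shares a locus in the files with a gene on the other strand, AT1G13740 and AT3G07120.

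Of 14 tested lipid genes 3 rose and 0 fell (21.4%, against 23.3% of all tested genes). The glycerophosphodiester phosphodiesterase genes GDPD5 and GDPD2, whose products split deacylated phospholipids, rose 2.28-fold and 1.56-fold. GDPD5 measured 15.8 and 10.02 FPKM in the WT libraries and 28.0 and 30.8 FPKM in the mutant ones (1.16 ± 0.20, limma adjusted p = 0.0105) and passed under all 11 alternatives; it shares a locus in the files with AT1G74205. GDPD2 measured 60.4 and 52.6 FPKM in the WT libraries and 94.3 and 82.3 FPKM in the mutant ones (0.64 ± 0.11, limma adjusted p = 0.012, and 0.0893 without WT replicate 2). PAH2, a phosphatidate phosphatase of the same exchange, averaged 16.3 ± 1.39 FPKM in WT and 21.2 ± 1.195 FPKM in fer-4 at an adjusted p of 0.0497 by limma, a call that ended under 9 of 11 alternatives. The galactolipid and sulfolipid synthesis genes MGD2, MGD3 and SQD1 did not pass.

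**Figure D4:**
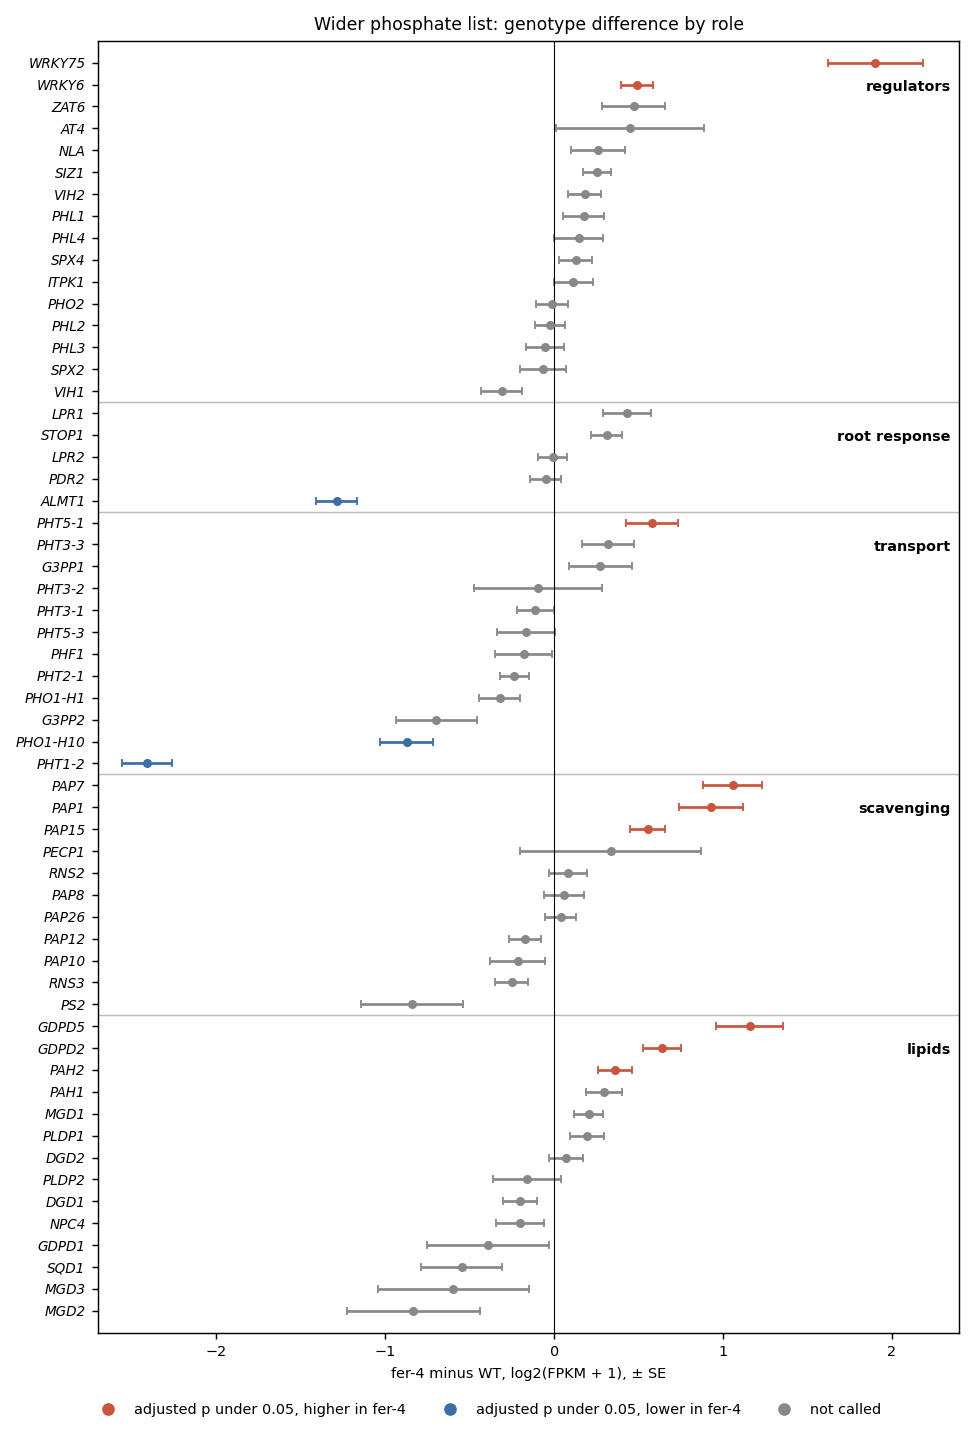
Log2 fold change between fer-4 and WT with its SE for the 58 tested genes of the wider phosphate list, in blocks by role; red marks the 9 genes higher and blue the 3 genes lower at an adjusted p under 0.05. PHT1-2, at -2.41, is farthest to the left and WRKY75, at 1.90, farthest to the right.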

How the data were processed

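Gene-level FPKM values, 1 file per library, were used as the authors deposited them, per the file headers. Software listed without role or setting in the submitters' processing notes is HISAT2 2.0.5, StringTie 1.3.3 and CASAVA, with the build TAIR10. No source used here gives the strand setting or the handling of reads with several matches. The files list only genes above 0, and absent genes were taken as 0. They hold no counts: 34.2% to 36.9% of 599 to 725 low values per library lay within 0.1 of a whole multiple of the smallest common step, so fragments were not recovered and depth is unknown.

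Genes averaging 1 FPKM or more were compared as log2(FPKM + 1) by limma-trend (limma 3.58.1, R 4.3.3) without covariates, with Benjamini-Hochberg adjustment over all tested genes at 0.05; tests are two-sided. An exact permutation test of 2 against 2 cannot reach this threshold and was not used. Fold changes on this scale understate changes of low genes. SE is limma's moderated standard error. The test was tried on simulated data. The named genes were all 10 members, wider-list genes past the threshold (at most 12, by size of change) and circuit partners and close relatives; members and lists were chosen with earlier results of these data known. Upstream and microRNA sequences were read from RefSeq TAIR10.1 with Python 3.11.15, aligned with Biopython 1.88; the coding region lay inside the file's locus for 99.4% of 22779 coding genes. Alternatives changed the pseudocount (0.1), filter, scaling, trend, replicate block or libraries. A target sequence is not reported here.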

Additional observations from a re-analysis of the deposited data

How the results depend on the processing

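The calls of RNS1, PHT1-2, ALMT1, PAP7 and GDPD5 held under all 11 alternatives, and that of PHR1 under 2. Leaving out each library in turn gave 1688 to 4417 calls over all genes (1227 to 2681 higher, 461 to 1736 lower), 2 to 4 among the members (1 to 3 higher, 0 to 2 lower) and 7 to 13 in the wider list (3 to 10 higher, 2 to 7 lower), with the fewest calls over all genes without WT replicate 2 (1688) and WT replicate 1 (1905). Of the genes named here that were not called, the direction turned in these fits for IPS1 (-1.37 to 1.04), PHT1-4 (-0.0567 to 0.52), PAP17 (-0.57 to 0.14), PHO2 (-0.0834 to 0.0569), AT4 (-0.27 to 1.17), SPX2 (-0.24 to 0.11), PAP10 (-0.45 to 0.0138), PAP26 (-0.0150 to 0.0905), RNS2 (-0.0432 to 0.21), MGD3 (-1.32 to 0.12), GDPD1 (-1.003 to 0.22) and PECP1 (-0.56 to 1.23). Quantile normalization turned PAP26 to -0.0067, and the cause was not tested. The labels' replicate numbers do not say what they pair; deviations of same-numbered libraries correlated at -0.222 over 19183 genes. With the replicate block 2 members were higher and 2 lower, SPX1 and SQD2. Over all 19183 tested genes that fit called 2410 higher and 1362 lower. With the numbers crossed, a fit chosen after seeing the data, 3 members were higher and 1 (SPX1) lower. In the wider list the crossed fit called 11 genes higher and 5 lower, against 3315 higher and 2366 lower of all 19183 tested genes. Depth is unknown, so no counting error can be given for low genes such as SPX3.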
